A study of Mus musculus with 12 samples.

Results

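Serpins are a superfamily of proteins that share a fold with an exposed reactive loop. In the inhibitory members a protease cuts the loop and is trapped in a covalent complex, while other members act as chaperones or as signalling or matrix-binding proteins. They are grouped in lettered clades: clade A holds mainly plasma proteins of the liver, clade B proteins that mostly stay inside the cell, and clades C to I include antithrombin, heparin cofactor, the PEDF and antiplasmin pair, C1 inhibitor, a collagen chaperone and neuroserpin. In the testis, serpins and the proteases they inhibit are known for their part in the turnover of matrix and cell junctions.

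The members were all genes of the deposited expression table whose symbol starts with Serpin, which gave 36 of 17576 genes, and 35 of them are described. By the letter of the symbol, 9 of these belonged to clade A, 18 to clade B, 2 to clade F, and 1 each to clades C, D, E, G, H and I. The table held RNA sequencing values of 12 libraries of C18-4 cells, which come from mouse type A spermatogonia and are listed under the strain "IRC mouse". All cells were transfected with virus. The 4 groups of 3 libraries were 8276OV (overexpression of the long noncoding RNA lncRNA8276), 8276KD (its inhibition), and 5NC and 3NC, which the labels do not spell out. The design text places 5NC next to overexpression and 3NC next to knockdown, and they served as the respective controls. The sources used here give neither the kind of virus nor its dose or the time of harvest, and the level of lncRNA8276 was not analysed here. Whether replicate libraries stem from separate cultures is not in the labels, so a p-value here speaks only of library-to-library spread, possibly technical.

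Levels are FPKM as read from the values, which are scaled to gene length, so levels of different genes can be set side by side. The libraries held an implied 10.1 M to 12.4 M fragments, and r of log2 levels was 0.993 to 0.998 within groups and 0.951 to 0.988 between them. Of 9 markers of undifferentiated spermatogonia in the table, 7 stayed below 1 in all 12 libraries and the highest, Etv5, reached 7.89. Their summed level was 9.17 to 9.90 in 3NC, 4.22 to 5.07 in 5NC, 5.84 to 6.20 in 8276KD and 2.89 to 3.53 in 8276OV. All 6 mesothelial and simple epithelial markers were at 1 or more in every library, with a summed level of 629.6 to 645.0 in 3NC, 1157 to 1175 in 5NC, 831.0 to 966.8 in 8276KD and 746.2 to 879.0 in 8276OV. Other somatic markers were present too. Of 5 peritubular myoid markers, 4 were at 1 or more in every library, with a summed level of 66.45 to 88.22. Of 8 Sertoli markers in the table, 2 were at 1 or more in every library and 4 stayed below 1 in all. The Sertoli sum was 55.07 to 70.14, with Wt1 at up to 62.8. The part of all these markers in the Serpin results was not tested. In bulk RNA, fewer cells of a type and less RNA per cell cannot be told apart.

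Most Serpin genes were close to 0 in these cells. Of the 35, 7 were listed at 0 in all 12 libraries (Serpina1c, Serpina1d, Serpina3c, Serpinb7, Serpinb9c, Serpinb9e and Serpinb11) and 23, these included, stayed below 0.5 in all 12. The highest of the 9 clade A genes, relatives of alpha-1-antitrypsin and antichymotrypsin, was Serpina3i, at up to 0.44, followed by Serpina3g at 0.27 and Serpina3f at 0.15, while Serpina3n, Serpina9 and Serpina11 did not exceed 0.08. The 4 hepatocyte markers in the table did not exceed 0.24. Serpinc1 (antithrombin) reached at most 0.14, Serpind1 (heparin cofactor) 0.13, Serpinf2 (alpha-2-antiplasmin) 0.10 and Serpine3 0.10. In clade B, Serpinb2, a urokinase inhibitor found mainly inside cells, reached 0.29, and Serpinb5 (maspin), Serpinb6c, Serpinb6e, Serpinb9d and Serpinb9g did not exceed 0.06.

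The filter for testing asked for a level of at least 1 in at least 3 libraries and kept 10 of these Serpin genes: 6 of clade B and Serpinf1, Serping1, Serpinh1 and Serpini1. Just inside it were Serpinb1b, at 1 or more in 4 libraries, and Serpinb8, in 5 libraries. Just outside were Serpinb1c, in 2 libraries, and Serpinb1a, in 1 library. The libraries in which Serpinb1b and Serpinb8 reached 1 all belonged to 5NC or 8276OV, so a gene of this kind passed only through the groups where it was high. The other 8 stayed above 1 in all 12 libraries.

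The summed level of the 35 genes was higher in 5NC and 8276OV than in the other groups, and its make-up differed between these. The sum was 652.6 ± 10.97 in 3NC, 826.7 ± 17.4 in 5NC, 686.9 ± 12.5 in 8276KD and 839.5 ± 15.6 in 8276OV (SD, n = 3). Clade B made up 44.0%, 39.3% and 44.1% of the sum in 3NC, 5NC and 8276KD, and 63.8% in 8276OV. Serpinh1 alone made up 54.7% in 5NC and 33.0% in 8276OV. These sums rest on a few abundant genes and were not tested.

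**Figure D1:**
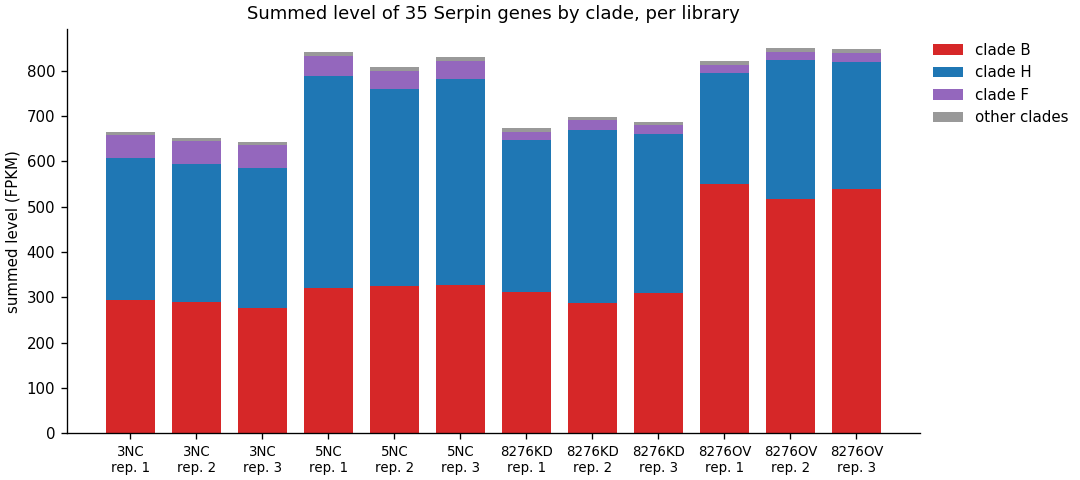
Stacked bars show the summed level (FPKM) of the 35 Serpin genes in each of the 12 libraries, split by clade. Clade B (red) reached 517.6 to 550.7 in the 8276OV libraries and stayed between 276.5 and 327.5 in the other 9.

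The genes with the largest levels in clade B lie together on chromosome 13, where 13 of the 18 clade B members were found between positions 32842092 and 34002794 (GRCm38, the assembly of mm10). Only Serpinb6a, Serpinb6b, Serpinb9 and Serpinb9b of this cluster were above 2 in any library. Their promoters are printed because Serpinb6b, Serpinb9 and Serpinb9b were higher in 5NC than in 3NC and highest in 8276OV, while Serpinb6a, the remaining abundant gene of the cluster, was lowest in 5NC. The promoter of Serpinf1, which lies elsewhere and was lower in both manipulated groups, is shown beside them. Each runs 5′ to 3′ from 250 bases before to 50 bases after a RefSeq transcript start, with the build GRCm38.p6. Capitals mark matches on either strand to a CCAAT box (CCAAT), a GC box (GGGCGG) or a STAT-type palindrome (TTCNNNGAA).
Serpinb6b, chr13:32965011-32965310, plus strand: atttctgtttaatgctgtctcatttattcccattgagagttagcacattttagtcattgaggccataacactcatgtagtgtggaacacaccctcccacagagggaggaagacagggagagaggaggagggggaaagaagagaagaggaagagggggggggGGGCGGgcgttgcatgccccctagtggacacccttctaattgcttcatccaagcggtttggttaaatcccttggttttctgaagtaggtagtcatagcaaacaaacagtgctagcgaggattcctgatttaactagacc
Serpinb9, chr13:33004291-33004590, plus strand: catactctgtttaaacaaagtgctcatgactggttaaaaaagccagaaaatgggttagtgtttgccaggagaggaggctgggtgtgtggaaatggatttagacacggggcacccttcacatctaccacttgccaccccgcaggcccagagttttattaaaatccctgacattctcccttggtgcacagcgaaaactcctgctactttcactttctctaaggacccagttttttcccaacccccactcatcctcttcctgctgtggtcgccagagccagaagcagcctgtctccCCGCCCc
Serpinb9b, chr13:33027164-33027463, plus strand: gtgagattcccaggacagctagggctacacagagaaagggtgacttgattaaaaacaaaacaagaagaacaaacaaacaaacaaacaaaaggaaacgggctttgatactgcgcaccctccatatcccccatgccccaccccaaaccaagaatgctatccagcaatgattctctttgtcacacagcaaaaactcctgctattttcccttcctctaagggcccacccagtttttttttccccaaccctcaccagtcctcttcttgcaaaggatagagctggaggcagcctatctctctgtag
Serpinb6a, chr13:34002745-34003044, minus strand: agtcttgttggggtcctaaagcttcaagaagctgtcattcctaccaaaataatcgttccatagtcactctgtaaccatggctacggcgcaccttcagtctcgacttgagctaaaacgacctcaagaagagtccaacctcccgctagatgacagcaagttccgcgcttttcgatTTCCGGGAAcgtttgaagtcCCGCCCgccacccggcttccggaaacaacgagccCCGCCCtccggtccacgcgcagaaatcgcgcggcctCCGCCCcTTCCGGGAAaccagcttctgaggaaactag
Serpinf1, chr11:75422574-75422873, minus strand: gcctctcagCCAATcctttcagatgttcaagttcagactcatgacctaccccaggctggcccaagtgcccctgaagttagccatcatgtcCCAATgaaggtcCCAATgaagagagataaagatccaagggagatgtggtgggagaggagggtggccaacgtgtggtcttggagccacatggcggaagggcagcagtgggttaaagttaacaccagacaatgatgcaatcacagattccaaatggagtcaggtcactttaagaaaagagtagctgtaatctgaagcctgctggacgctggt

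The printed promoter of Serpinb6a stood apart from the other 3 printed for the cluster in base composition. It had a GC content of 55.7% and 25 CpG dinucleotides, against 48.3% and 4 in Serpinb6b, 51.0% and 5 in Serpinb9, and 46.7% and 2 in Serpinb9b. The median of 32851 RefSeq promoters of this length was 52.7% and 7. Serpinb6a held 3 GC boxes and 2 STAT-type palindromes, Serpinb6b and Serpinb9 held 1 GC box each, and Serpinb9b held none of the 3 motifs. Serpinf1 held 3 CCAAT boxes. Of all promoters, 37.4% held a CCAAT box, 35.7% a GC box and 8.30% the palindrome, so the first 2 are common. Serpinb9 and Serpinb9b shared a stretch of at most 13 bases, and no other pair of the promoters found shared more than 10. These matches are letters in a window, not measured binding. A second RefSeq start of Serpinb6a, in the window chr13:33936034-33936333 on the minus strand, had 5 CpG dinucleotides and 1 CCAAT box. The contrast thus rests on the start chosen. The printed Serpinb6a window also lies within the span of Ripk1 (34002225 to 34035170). Those of Serpinb6b and Serpinb9 lie inside their gene spans, which begin at 32956811 and 32997061.

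Serpinb9b (gene 20706, chr13:33027414-33040588), a close relative of the granzyme inhibitor Serpinb9, had the largest rise under overexpression of the 10 tested Serpin genes. Its level was 55.90, 56.26 and 51.66 in 3NC, 70.91, 71.75 and 70.61 in 5NC, 78.27, 68.62 and 76.98 in 8276KD, and 150.14, 148.99 and 150.96 in 8276OV. The 8276OV libraries lay far above all others, those of 5NC and 8276KD overlapped, and all 9 lay above the 3NC libraries. Against 5NC it was 2.11-fold higher in 8276OV (log2 fold change 1.07, SE 0.0512, limma adjusted p = 1.95e-08), a difference that ranked 10 from the highest of 11360 genes tested. Under knockdown it rose by 0.44 on the log2 scale against 3NC (SE 0.0512, adjusted p = 2.14e-05), but was at 0.07 against 5NC (adjusted p = 0.287). Between the controls it was 0.38 higher in 5NC (adjusted p = 3.33e-05).

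Serpinb6b (gene 20708, chr13:32956811-32979067), known in the mouse as an inhibitor of granzyme A, followed the same order of groups except for 8276KD. It stood at 54.17, 52.89 and 51.83 in 3NC, 92.89, 95.30 and 93.47 in 5NC, 57.80, 52.80 and 57.41 in 8276KD, and 158.94, 141.78 and 154.40 in 8276OV. The 3NC and 8276KD libraries overlapped at the bottom, 5NC lay above both and 8276OV above all. The rise over 5NC was 1.62-fold (log2 fold change 0.68, SE 0.0498, adjusted p = 1.89e-07), and over 3NC 2.86-fold (adjusted p = 4.22e-11). Against 3NC, 8276KD was at 0.08 (adjusted p = 0.232), and against 5NC it was lower by a log2 fold change of -0.74 (adjusted p = 5.97e-08).

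Serpinb9 (gene 20723, chr13:32997061-33017955), the inhibitor of granzyme B that protects cells from their own or a neighbour's cytotoxic granules, repeated this order at a lower level. Its values were 16.27, 16.33 and 15.42 in 3NC, 27.65, 28.99 and 29.65 in 5NC, 18.16, 14.49 and 17.52 in 8276KD, and 38.38, 35.70 and 37.80 in 8276OV. Again 3NC and 8276KD overlapped, and 5NC and 8276OV lay above them without overlap. In 8276OV the level was 1.30-fold that of 5NC (log2 fold change 0.36, SE 0.0706, adjusted p = 3.73e-04) and 2.33-fold that of 3NC (log2 fold change 1.17, adjusted p = 9.37e-09). Correction for GC content brought these log2 fold changes to 0.07 (adjusted p = 0.179) and 0.88 (adjusted p = 1.87e-10). Knockdown left Serpinb9 at 0.05 against 3NC (adjusted p = 0.573, and 0.15 with adjusted p = 0.0372 without 8276KD replicate 2) and -0.75 against 5NC (adjusted p = 1.30e-06). The 4 markers of cytotoxic lymphocytes in the table, the cells whose granzymes these serpins inhibit, did not exceed 0.17 in any library.

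Serpinb6a (gene 20719, chr13:33917918-34002794), the mouse counterpart of the cytosolic protease inhibitor SERPINB6, was the most abundant gene of clade B. Its level was 165.95, 162.66 and 155.57 in 3NC, 125.90, 125.55 and 129.58 in 5NC, 155.57, 149.79 and 154.28 in 8276KD, and 197.37, 186.11 and 190.83 in 8276OV. Here 5NC was lowest, 3NC and 8276KD touched, and 8276OV was highest. The rise in 8276OV was 1.51-fold over 5NC (log2 fold change 0.59, SE 0.0390, adjusted p = 9.88e-08) but 1.19-fold over 3NC (log2 fold change 0.25, adjusted p = 6.77e-05). After correction for GC content the second difference was -0.09 (adjusted p = 0.0518). Knockdown gave -0.07 against 3NC (adjusted p = 0.148) and 0.27 against 5NC (adjusted p = 6.70e-05). The difference from 3NC passed after GC correction (-0.14, adjusted p = 0.00879) and with quantile normalization (-0.12, adjusted p = 0.0323). The Serpinb6a exons overlap those of Nqo2, Ripk1 and 1110046J04Rik on the opposite strand, and the sources used here do not say whether counting used strand. Nqo2 was 0.48 higher in 8276OV than in 5NC on the log2 scale (adjusted p = 3.75e-05), and Ripk1 was at 0.04 (adjusted p = 0.570). These genes were looked at after their values were seen.

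**Figure D2:**
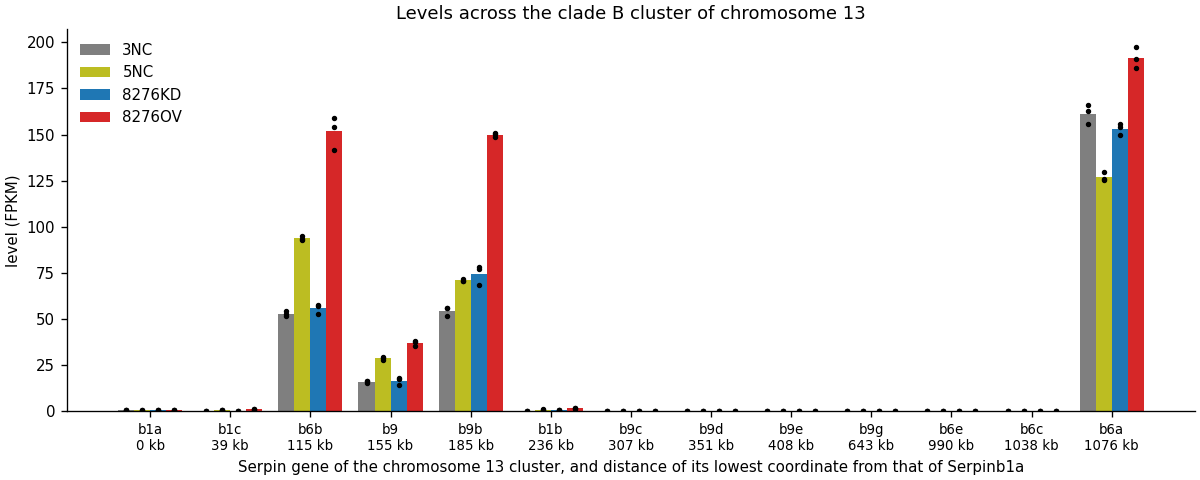
Bars give the group mean level (FPKM) of the 13 Serpin genes of the chromosome 13 cluster in genome order, with the distance of each from Serpinb1a in kb and dots for single libraries (n = 3 a group). Serpinb6b, Serpinb9 and Serpinb9b rose from 3NC to 5NC to 8276OV, while Serpinb6a was lowest in 5NC, and the other 9 genes stayed at or below 1.94.

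Serpinb1b (gene 282663), a member of the Serpinb1 group related to the leukocyte elastase inhibitor, lay within the same cluster at a low level. Its values were 0.42, 0.38 and 0.51 in 3NC, 0.93, 1.22 and 0.92 in 5NC, 0.69, 0.57 and 0.71 in 8276KD, and 1.90, 1.94 and 1.29 in 8276OV. No pair of groups overlapped. If the values are FPKM, a level of 1 stood for about 18.9 fragments of this gene at the median implied depth. Against 5NC, 8276OV was 0.42 higher on the log2 scale (SE 0.102, adjusted p = 0.00214), and 0.13 after GC correction (adjusted p = 0.291). Serpinb1b passed the filter only through 5NC and 8276OV libraries, so p-values for these groups are not independent of the filter. The knockdown difference was 0.21 against 3NC (adjusted p = 0.126) and -0.29 against 5NC (adjusted p = 0.0283). With a pseudocount of 0.1 the difference from 3NC passed at 0.50 (adjusted p = 0.0480). Of its transcript's 50-base stretches, 3.52% also occurred in Serpinb1a or Serpinb1c, so some reads may have been divided among them. Serpinb1c, below the filter, stood at 0.48, 0.29 and 0.16 in 3NC, 0.73, 0.66 and 0.84 in 5NC, 0.43, 0.31 and 0.49 in 8276KD, and 1.60, 0.80 and 1.43 in 8276OV. Serpinb1a, also below it, ranged from 0.49 to 1.05 with overlap of all groups.

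Serpinb8 (gene 20725, chr1:107589926-107608978), an inhibitor of the proprotein convertase furin, was the only tested clade B gene outside chromosome 13. Its level was 0.64, 0.40 and 0.47 in 3NC, 1.13, 1.02 and 1.27 in 5NC, 0.68, 0.31 and 0.58 in 8276KD, and 1.39, 1.47 and 0.97 in 8276OV. Libraries of 5NC and 8276OV overlapped above those of 3NC and 8276KD, which overlapped too. Neither manipulation passed the test against its own control (log2 fold change 0.08, adjusted p = 0.510 for 8276OV, and 0.01, adjusted p = 0.934 for 8276KD). The control groups differed by 0.51 (SE 0.112, adjusted p = 0.00163). Serpinb8 passed the filter only through 5NC and 8276OV libraries, so this p-value is not independent of the filter.

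**Figure D3:**
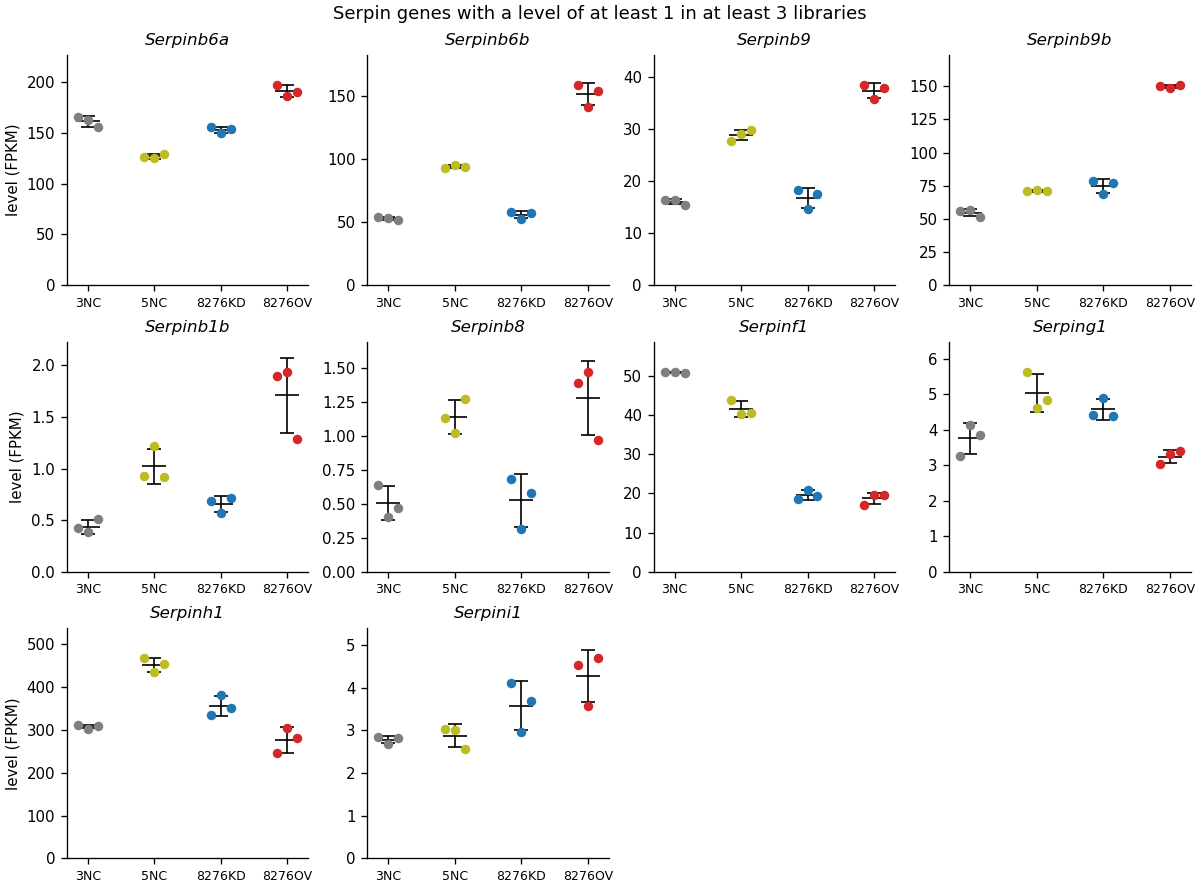
Each panel plots the level (FPKM, axis from 0) of a tested Serpin gene in the 12 libraries by group, with the group mean as a bar and SD as whiskers (n = 3). Serpinb9b, Serpinb6b, Serpinb9 and Serpinb6a were highest in 8276OV, Serpinh1 in 5NC, and Serpinf1 was low in both 8276KD and 8276OV.

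Outside clade B, Serpinf1 was lower in both manipulated groups than in either control. Serpinf1 (gene 20317, chr11:75410029-75422623) encodes pigment epithelium-derived factor, a secreted serpin that does not inhibit proteases, binds collagen and limits vessel growth. Its level was 51.12, 50.99 and 50.88 in 3NC, 43.81, 40.31 and 40.52 in 5NC, 18.58, 20.98 and 19.25 in 8276KD, and 16.97, 19.56 and 19.60 in 8276OV. The 8276KD and 8276OV libraries overlapped below 21, and both control groups lay above 40. Knockdown brought it to 0.384 of the 3NC level (log2 fold change -1.34, SE 0.0621, adjusted p = 8.27e-09), a difference that ranked 23 from the lowest of 11360 genes. Overexpression brought it to 0.450 of the 5NC level (log2 fold change -1.11, SE 0.0621, adjusted p = 4.03e-08), 126 from the lowest. These comparisons share no library.

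With the control groups exchanged, Serpinf1 was still lower in both arms, by a log2 fold change of -1.05 for 8276KD against 5NC (adjusted p = 1.88e-08) and -1.40 for 8276OV against 3NC (adjusted p = 5.70e-10). After correction for GC content the differences from the listed controls were -1.29 (adjusted p = 5.14e-12) and -0.73 (adjusted p = 3.70e-09). The 2 manipulated groups differed from each other by -0.07 (adjusted p = 0.366), and by 0.21 after GC correction, with 8276OV higher (adjusted p = 2.83e-04). The test of whether both effects differ gave 0.23 (SE 0.0879, adjusted p = 0.0395). That call was lost without 3NC replicate 1, 2 or 3, 5NC replicate 2 or 3, 8276KD replicate 1 or 3, or 8276OV replicate 2 or 3, with values from 0.19 to 0.23 and adjusted p from 0.0656 to 0.0973, and without the filter on low values (adjusted p = 0.0618). It was larger with other scalings: 0.56 once GC content was corrected (adjusted p = 1.60e-06), 0.34 when libraries were quantile normalized (adjusted p = 0.00257) and 0.31 with median-of-ratios factors (adjusted p = 0.00645).

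Serpini1 (gene 20713, chr3:75557493-75642523), which encodes neuroserpin, an inhibitor of tissue plasminogen activator, was low. Its values were 2.84, 2.68 and 2.83 in 3NC, 3.04, 3.01 and 2.56 in 5NC, 4.10, 2.96 and 3.69 in 8276KD, and 4.54, 3.57 and 4.69 in 8276OV. The controls overlapped, the manipulated groups overlapped with each other above 3NC, and 8276KD overlapped with 5NC. In 8276OV it was 0.44 higher than in 5NC (SE 0.102, adjusted p = 0.00146) and 0.05 after GC correction (adjusted p = 0.613). Under knockdown the difference was 0.27 (adjusted p = 0.0505), and passed at 0.37 without 8276KD replicate 2 (adjusted p = 0.00774), 0.20 after GC correction (adjusted p = 0.0318), 0.31 when libraries were quantile normalized (adjusted p = 0.0328) and 0.25 against both controls together (adjusted p = 0.0316).

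Of the 11 genes listed for plasminogen activation, the system that Serpini1 restrains, 8 were tested. Under overexpression 4 were higher and 3 lower, with a median log2 fold change of 0.16 against -0.09 over all genes, and under knockdown 3 were higher and 4 lower. For this and the lists below, the shares over all genes tested were 30.3% higher and 44.1% lower in 8276OV against 5NC, and 20.0% higher and 19.5% lower in 8276KD against 3NC. With the controls exchanged they were 33.5% and 41.7% in 8276OV against 3NC, and 24.7% and 30.5% in 8276KD against 5NC. Plat, the tissue plasminogen activator, rose from 26.7 ± 1.55 in 5NC to 33.0 ± 0.873 in 8276OV (SD, n = 3; adjusted p = 1.90e-04) and from 17.3 ± 0.837 in 3NC to 21.0 ± 0.348 in 8276KD (adjusted p = 0.00157), but was lower in 8276KD than in 5NC (-0.33, adjusted p = 1.50e-04). S100a10, a plasminogen receptor subunit, rose in both arms (log2 fold changes 0.78 and 0.49, adjusted p = 1.68e-08 and 3.18e-07). Lrp1, which clears protease and serpin complexes, fell in both (-0.79 and -0.67, adjusted p = 4.47e-07 and 5.48e-06). After GC correction its values were -0.21 and -0.58 (adjusted p = 0.00309 and 3.42e-07). Lrp8 fell under knockdown (-0.39, adjusted p = 5.64e-04) and was at 0.14 under overexpression (adjusted p = 0.0801), while against the other control it was 1.13 higher in 8276KD (adjusted p = 2.06e-08) and lower in 8276OV (-1.38, adjusted p = 1.36e-09). The urokinase gene Plau did not exceed 0.20, plasminogen (Plg) 0.03 and vitronectin (Vtn) 0.08. These 3 were picked out after their values were seen.

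Serpinh1 (gene 12406, chr7:99345375-99353239) encodes Hsp47, an endoplasmic reticulum chaperone of procollagen, and was the most abundant Serpin gene in all 4 groups. Its level was 311.81, 303.18 and 308.02 in 3NC, 467.24, 434.36 and 454.60 in 5NC, 334.40, 382.02 and 351.29 in 8276KD, and 245.53, 305.18 and 280.40 in 8276OV. The 5NC libraries were highest, 8276KD lay between the controls, and 8276OV overlapped with 3NC. It fell to 0.613 of the 5NC level under overexpression (log2 fold change -0.71, SE 0.0679, adjusted p = 1.15e-06), and the difference was -0.20 after GC correction (adjusted p = 9.03e-05). Against 3NC, 8276OV was at -0.16 (adjusted p = 0.0501), and at 0.28 after GC correction (adjusted p = 1.70e-06), so its direction rested on the control and the correction. Knockdown gave 0.21 against 3NC (SE 0.0679, adjusted p = 0.0271) and -0.35 against 5NC (adjusted p = 7.44e-04). The knockdown rise was lost without 3NC replicate 1, 2 or 3 or 8276KD replicate 2 or 3, with adjusted p from 0.0558 to 0.0822 and values from 0.16 to 0.22. It was also lost without the filter on low values (adjusted p = 0.0566) and with quantile normalization (0.09, adjusted p = 0.248). Corrected for GC content, 8276KD was at 0.28 against 3NC (adjusted p = 5.62e-06) and at -0.21 against 5NC (adjusted p = 5.32e-05).

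Of 26 tested genes for procollagen folding and crosslinking, the pathway that Serpinh1 serves, none was higher and 21 were lower in 8276OV than in 5NC, with a median of -0.50. GC correction left 5 higher and 11 lower, and brought the median to -0.09. Under knockdown 9 were higher and 5 lower. Against the other control, 5 were higher and 17 lower in 8276OV, and 4 higher and 15 lower in 8276KD. Col3a1, the type III collagen chain, stood at 117.6 ± 1.74 in 5NC and 80.6 ± 4.47 in 8276OV, and at 36.02 ± 0.902 in 3NC and 56.7 ± 0.548 in 8276KD (SD, n = 3; log2 fold changes -0.54 and 0.64, adjusted p = 4.10e-07 and 2.37e-07). Like Serpinh1, P3h4, a partner of the collagen-modifying lysyl hydroxylase, fell under overexpression (-0.70, adjusted p = 3.55e-07, and -0.08 with adjusted p = 0.240 after GC correction) and rose under knockdown (0.61, adjusted p = 3.02e-06). Col5a2 did the same (-0.45 and 0.11, adjusted p = 4.75e-07 and 0.0368), and Pcolce, the enhancer of procollagen cleavage, fell under overexpression (-0.81, adjusted p = 4.43e-07) and was at -0.03 under knockdown (adjusted p = 0.749). The directions of Col3a1, P3h4 and Col5a2 turned with the control: they were higher in 8276OV than in 3NC (1.14, 0.22 and 0.37, adjusted p = 1.79e-10, 0.00336 and 1.24e-06) and lower in 8276KD than in 5NC (-1.04, -0.30 and -0.72, adjusted p = 1.33e-09, 5.00e-04 and 7.25e-09).

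Among 12 genes of the heat shock response, with which Hsp47 shares its name and its induction by heat, 6 were higher and 6 lower under overexpression, and 2 higher and 4 lower under knockdown. The other control gave 3 higher and 8 lower in 8276OV, and 7 higher and 1 lower in 8276KD. In 5NC against 3NC 1 was higher and 9 lower (median -0.45), while Serpinh1 was 0.55 higher there (SE 0.0679, adjusted p = 1.25e-05). Hsp90aa1 rose in both arms (0.89 and 0.33, adjusted p = 1.74e-07 and 0.00115). Hsph1 and Hspe1 rose under overexpression (0.59 and 0.60, adjusted p = 1.93e-07 for each). Hspa8 rose there by 0.17 (adjusted p = 1.92e-04) and fell by 0.23 on the log2 scale under knockdown (adjusted p = 5.32e-05). The Hspa8 rise was 0.022 after GC correction (adjusted p = 0.548), and both its directions turned with the other control (-0.70 in 8276OV and 0.64 in 8276KD, adjusted p = 3.64e-10 and 2.22e-09). Hsph1 was lower in 8276OV than in 3NC (-0.11, adjusted p = 0.0286). The 6 genes lower in 8276OV than in 5NC were Hspa1b (-0.99), Hsf1 (-0.79), Hspb1 (-0.74), Dnajb1 (-0.54), Hspa1a (-0.43) and Bag3 (-0.27). They were picked out after their values were seen.

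Serping1 (gene 12258, chr2:84765360-84775444) encodes C1 inhibitor, which controls the first proteases of the classical and lectin complement pathways and the contact system. Its level was 3.27, 4.14 and 3.86 in 3NC, 5.64, 4.62 and 4.85 in 5NC, 4.43, 4.91 and 4.38 in 8276KD, and 3.03, 3.31 and 3.40 in 8276OV. The 5NC and 8276KD libraries overlapped above those of 3NC and 8276OV, which overlapped too. It fell to 0.645 of 5NC in 8276OV (log2 fold change -0.50, SE 0.0843, adjusted p = 1.08e-04), and the difference was -0.26 after GC correction (adjusted p = 0.00920). Against 3NC, 8276OV was at -0.16 (adjusted p = 0.0992), and at 0.032 after GC correction (adjusted p = 0.724). The knockdown rise of 0.23 over 3NC (SE 0.0843, adjusted p = 0.0431) was lost without 3NC replicate 1 or 3 or any 8276KD replicate, with values from 0.16 to 0.26 and adjusted p from 0.0634 to 0.188. It was also lost without the filter on low values (adjusted p = 0.0665) and in a fit of these 2 groups alone (adjusted p = 0.0607), and against 5NC the value was -0.11 (adjusted p = 0.273). Corrected for GC content, 8276KD was at 0.25 against 3NC (adjusted p = 0.0125) and at -0.039 against 5NC (adjusted p = 0.676). Of 7 tested complement genes, 1 was higher and 5 lower under overexpression (median -0.39), and 3 higher and 1 lower under knockdown. After GC correction none was higher and 4 were lower under overexpression (median -0.18). Against the other control, 2 were higher and 1 lower in 8276OV, and 1 higher and 4 lower in 8276KD. C1ra, a target protease of C1 inhibitor, fell in 8276OV from 30.9 ± 0.650 to 19.4 ± 0.860 (SD, n = 3; adjusted p = 2.13e-07) and rose in 8276KD from 19.9 ± 0.392 to 22.4 ± 0.681 (adjusted p = 0.0152). C3 and C2 fell under overexpression (-0.66 and -0.43, adjusted p = 2.06e-07 and 1.48e-05), and Masp1, a protease of the lectin pathway, rose under knockdown (0.23, adjusted p = 0.0442). Against the other control, C1ra and C2 were at -0.03 in 8276OV (adjusted p = 0.552 and 0.612), and C1ra and Masp1 were lower in 8276KD (-0.45 and -0.83, adjusted p = 4.58e-06 and 3.27e-06).

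**Figure D4:**
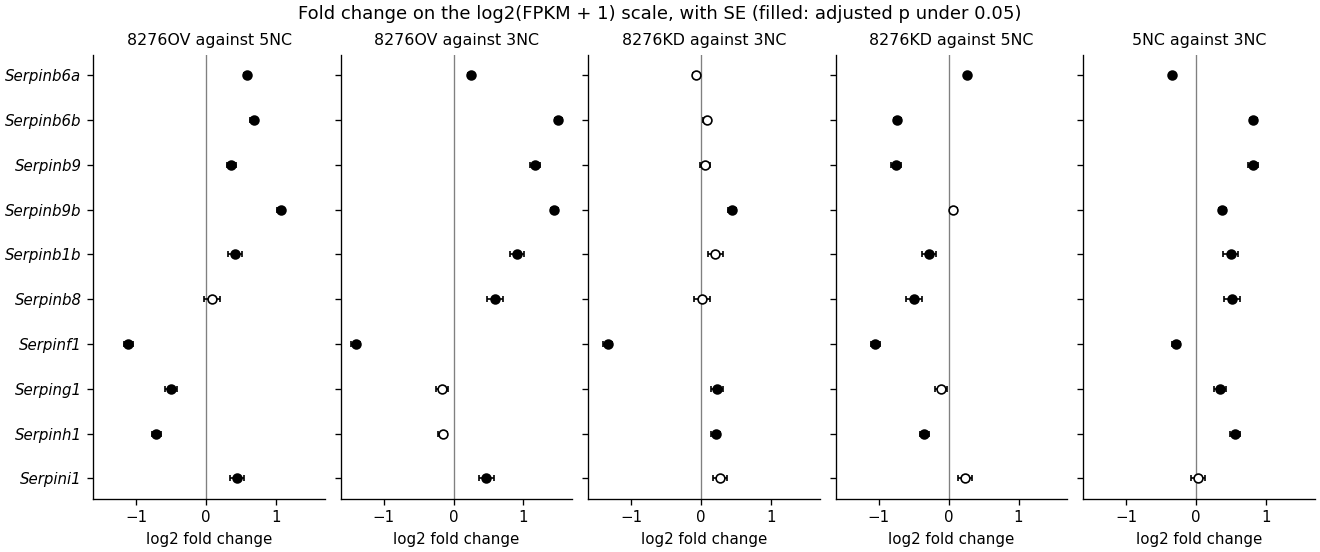
Points give the log2 fold change of the 10 tested Serpin genes, on the log2(FPKM + 1) scale, with SE as whiskers, for each manipulated group against either control and for 5NC against 3NC, filled where the limma adjusted p was under 0.05. Serpinf1 lay below 0 in every panel, while Serpinb6b and Serpinb9 lay above 0 for 8276OV against either control and changed sides for 8276KD with the control.

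Over the 10 tested genes, 6 were higher and 3 lower in 8276OV than in 5NC, in a comparison in which 74.4% of all genes were called (30.3% higher and 44.1% lower). In 8276KD against 3NC 3 were higher and 1 lower, where 39.4% of all genes were called (20.0% higher and 19.5% lower). Without 3NC replicate 1, 3NC replicate 3 or 8276KD replicate 3, only 1 of the 10 was higher. In 5NC against 3NC 7 were higher and 2 lower, where 56.5% were called (30.6% higher and 25.9% lower). The libraries of both groups did not overlap for 9 of the 10 in the first comparison, 6 in the second and 9 in the third, which held for 77.6%, 49.6% and 69.5% of all genes. The share called among Serpin genes in these comparisons was thus read against a background in which a large part of the transcriptome differed. Serpinb1b and Serpinb8 passed the filter only through 5NC and 8276OV libraries, so their calls are not independent of it. The median log2 fold change of the 10 was 0.39 under overexpression, 0.14 under knockdown and 0.43 between the controls, against -0.09, -0.0048 and 0.02 over all genes. Against the other control, 7 were higher and 1 lower in 8276OV (75.2% of all genes called, 33.5% higher and 41.7% lower), and 1 higher and 6 lower in 8276KD (55.3% called, 24.7% higher and 30.5% lower). Between 8276OV and 8276KD 6 of the 10 were higher and 2 lower in 8276OV, where 68.2% of all genes were called.

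Whether the effect of overexpression differed from that of knockdown was itself tested, and 60.6% of all genes were called (24.5% higher and 36.2% lower). The effect was higher under overexpression for Serpinb6a (0.66), Serpinb9b (0.62) and Serpinb6b (0.61), with adjusted p = 1.61e-06, 1.64e-05 and 1.64e-05 in that order, for Serpinb9 (0.31, adjusted p = 0.0162), and for Serpinf1 as given above. After GC correction, with 49.3% of all genes called, the Serpinb9 value was 0.07 (adjusted p = 0.350). Those of Serpinb6a, Serpinb9b and Serpinb6b were then 0.38, 0.44 and 0.42. Part of the Serpinb6a value came from the controls, as 5NC lay below 3NC (-0.34, adjusted p = 6.06e-06). Set directly against 8276KD, Serpinb6a in 8276OV was at 0.32, and at 0.048 after GC correction (adjusted p = 0.306). For Serpinb9b and Serpinb6b that GC-corrected difference was 0.81 and 1.23. The uncorrected Serpinf1 value came from the controls, as 5NC lay below 3NC (-0.29, adjusted p = 0.00134) while 8276OV against 8276KD was at -0.07. Serpinh1 (-0.92, SE 0.0960, adjusted p = 7.90e-06) and Serping1 (-0.74, SE 0.119, adjusted p = 1.90e-04) had effects of opposite sign in the arms, and the Serpinh1 value was -0.48 after GC correction (adjusted p = 1.08e-06). Part of both values came from the controls, as 5NC lay above 3NC (0.55 and 0.34). Set directly against 8276KD, 8276OV was at -0.36 and -0.39, and at 0.0047 (adjusted p = 0.910) and -0.22 (adjusted p = 0.0207) after GC correction. For Serpinb1b, Serpinb8 and Serpini1 the difference did not pass (adjusted p = 0.219, 0.719 and 0.318), and for Serpinb1b it was 0.33 without 8276OV replicate 3 (adjusted p = 0.0387).

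The direction of the overexpression differences ran with the base composition of the transcripts. The genes with the lowest GC content were Serpini1 (37.2%), Serpinb6a (40.0%), Serpinb8 (41.5%), Serpinb9 (42.1%), Serpinb1b (42.5%), Serpinb6b (44.1%) and Serpinb9b (44.2%). Those with the highest were Serping1 (52.3%), Serpinf1 (54.4%) and Serpinh1 (56.4%). Over the 11197 tested genes with a GC value, the median moved with GC content in this comparison. Genes within 2.5 points of Serpini1 had a median log2 fold change of 0.41, and those near Serpinh1 -0.50. Single genes spread widely: near Serping1 the 10th to 90th percentile ran from -0.60 to 0.12. Serpini1 and Serpinb9, at 0.44 and 0.36, lay close to the medians at their GC content, 0.41 and 0.31. Serpinb9b, at 1.07, lay above the median of 0.22 and the 90th percentile of 0.53 there, and Serpinb6b, at 0.68, above its 90th percentile of 0.53. Serpinf1, at -1.11, lay below the 10th percentile of -0.73.

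With GC content corrected, 3 Serpin genes were higher (Serpinb9b at 0.85, Serpinb6b at 0.46 and Serpinb6a at 0.24) and 3 lower (Serpinf1, Serping1 and Serpinh1) in 8276OV than in 5NC, where 54.8% of all genes were called (27.8% higher and 27.0% lower). Adjusted p was 5.57e-10, 1.32e-08 and 1.12e-04 for the first 3. The Serpinb9 difference from 5NC was then 0.07 (adjusted p = 0.179), while that from 3NC was 0.88 (adjusted p = 1.87e-10). In the knockdown comparison, whose medians by GC content stayed between -0.07 and 0.09 at the Serpin genes, 4 were higher and 2 lower after correction (48.4% of all genes called).

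**Figure D5:**
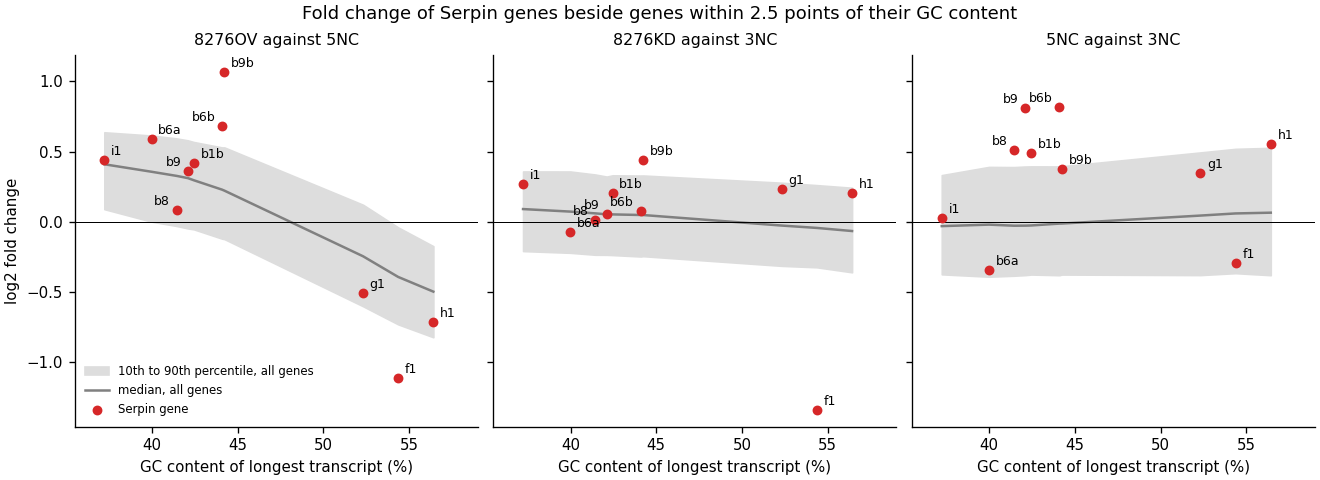
Red points plot the log2 fold change of each tested Serpin gene (y) against the GC content of its longest transcript in percent (x), over the median (line) and the 10th to 90th percentile (grey) of all tested genes within 2.5 points of GC content. Under overexpression Serpinb9b and Serpinb6b lay above the grey band and Serpinf1 below it, and under knockdown Serpinb9b lay above it and Serpinf1 below it.

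The genes beside the serpins of the chromosome 13 cluster moved in both directions. Of 8 tested genes that are no serpins and lie within 500 kb of the cluster, 2 were higher and 3 lower in 8276OV than in 5NC, with log2 fold changes from -0.53 (Bphl) to 0.48 (Nqo2). Over all genes tested, 30.3% were higher and 44.1% lower there, so counts of 8 genes do not set the neighbours apart. Under knockdown 3 were higher and none lower, with values from -0.07 to 0.45, where 20.0% of all genes were higher and 19.5% lower. The 4 abundant serpins of the cluster lay between 0.36 and 1.07 in the first comparison and between -0.07 and 0.44 in the second. With GC content corrected, the neighbours ran from -0.61 (Bphl) to 0.58 (Psmg4) in the first comparison, with Nqo2 at 0.21. The directions of Tubb2a (0.24), Slc22a23 (0.20), Tubb2b (0.09) and Ripk1 (-0.14) turned. These 4 serpins then ran from 0.07 (Serpinb9) to 0.85 (Serpinb9b). This look at the neighbours was chosen after the serpin values were seen. Few sequences are shared between the expressed genes: 0.499% of the 50-base stretches of Serpinb9b and 0.380% of those of Serpinb9 occurred in the other of the pair or another gene, 3.13% of those of Serpinb6b in Serpinb6c, Gm8436 or Serpinb6a, and none of those of Serpinf1, Serping1 or Serpinh1.

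The proteases that the expressed clade B serpins could meet, and other inhibitors, were described by lists. Of 7 tested cathepsins, leukocyte serine proteases and caspases, 3 were higher and 3 lower under overexpression, and 2 higher and 2 lower under knockdown. Casp8, an initiator of apoptosis, rose under overexpression (log2 fold change 0.47, adjusted p = 1.67e-06). After GC correction 1 was higher and 2 lower under overexpression. Ctsl, a lysosomal protease, rose in both arms (log2 fold changes 0.25 and 0.27, adjusted p = 3.00e-05 and 6.79e-05), but was at 0.033 after GC correction under overexpression (adjusted p = 0.466) and lower in 8276KD than in 5NC (-0.61, adjusted p = 1.56e-08). Ctsz fell under overexpression (-0.65, adjusted p = 2.12e-06, and -0.10 with adjusted p = 0.0100 after GC correction) and Ctsb under knockdown (-0.30, adjusted p = 2.30e-05). Of 7 serine proteases of the cell surface and secretory pathway, 1 was higher and 6 lower in 8276OV than in 5NC (median -0.49, and 1 higher and 3 lower after GC correction), 4 were higher and 2 lower in 8276KD than in 3NC, and 6 were higher and none lower in 5NC than in 3NC (median 0.99; 30.6% and 25.9% of all genes). Counted from the other control, 4 were higher and 1 lower in 8276OV, and none higher and 4 lower in 8276KD. Furin, the target of Serpinb8, stood at 6.71 ± 0.576 in 5NC and 3.53 ± 0.668 in 8276OV (SD, n = 3, adjusted p = 3.23e-05), and was picked out after its values were seen. Furin was lower under knockdown too, at 7.54 ± 0.268 in 3NC and 5.35 ± 0.985 in 8276KD (adjusted p = 0.00762). By the smallest p, Pcsk6 fell in both arms (-0.87 and -0.33, adjusted p = 7.93e-08 and 5.07e-04), Prss23 rose in both (0.31 and 0.50, adjusted p = 1.59e-04 and 1.27e-05), and Pcsk5 and Prss12 fell under overexpression (-0.49 and -0.57, adjusted p = 4.90e-05 and 4.30e-05) and rose under knockdown (0.69 and 1.08, adjusted p = 1.20e-05 and 7.49e-07). The Prss12 fall was -0.05 after GC correction (adjusted p = 0.652). In 8276OV against 3NC, Pcsk6, Pcsk5 and Prss12 were higher (0.41, 0.78 and 0.42, adjusted p = 1.86e-05, 6.67e-07 and 5.35e-04). In 8276KD against 5NC, Prss23 and Pcsk5 were lower (-0.60 and -0.58, adjusted p = 1.08e-06 and 2.46e-05), and Prss12 was at 0.09 (adjusted p = 0.368).

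Other protease inhibitors, which are no serpins, had 2 of 9 tested genes higher and 6 lower in 8276OV, and 2 higher and 1 lower in 8276KD. After GC correction 3 were higher and 3 lower in 8276OV. Against the other control 4 were higher and 4 lower in 8276OV, and 2 higher and 4 lower in 8276KD. Cstb, a cytosolic cathepsin inhibitor, rose under overexpression (0.50, adjusted p = 1.15e-06). The metalloprotease inhibitors Timp2 and Timp3 fell there (-0.40 and -0.14, adjusted p = 5.98e-06 and 0.0201) and rose under knockdown (0.19 and 0.40, adjusted p = 0.00608 and 3.09e-05), and Timp1 fell under knockdown (-0.64, adjusted p = 6.03e-06). The Timp2 fall was -0.06 after GC correction (adjusted p = 0.0949). With the controls exchanged, Timp2 and Timp3 were higher in 8276OV (0.53 and 1.77, adjusted p = 4.21e-07 and 7.00e-12) and lower in 8276KD (-0.74 and -1.51, adjusted p = 4.13e-08 and 1.30e-10), and Timp1 was at -0.10 in 8276KD (adjusted p = 0.189). In coagulation, where antithrombin and heparin cofactor act, 4 of 13 genes in the table were tested. Under overexpression 2 of these were higher and none lower (F3, the tissue factor, by 0.28, adjusted p = 7.49e-04, and Pros1 by 0.24, adjusted p = 0.0126). After GC correction 2 were higher and 1 lower, with Pros1 at -0.015 (adjusted p = 0.836), Procr higher (0.26, adjusted p = 0.00552) and F2r lower (-0.15, adjusted p = 0.00220). Under knockdown 3 were higher: F3 by 0.36 (adjusted p = 3.52e-04), the thrombin receptor F2r by 0.32 (adjusted p = 1.95e-04) and Procr by 0.19 (adjusted p = 0.0452). In 8276KD against 5NC, F3 and F2r were lower (-0.32 and -0.25, adjusted p = 4.82e-04 and 7.38e-04).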

How the data were processed

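Total RNA of 12 libraries of C18-4 cells (4 groups of 3) was sequenced. The values are those of a table that the authors deposited, with 17576 genes and a level per library, read as FPKM (fragments scaled by transcript length and library size) from the values. Neither labels nor headers give the unit, and TPM cannot be told apart from FPKM here. The build was mm10, per the submitters' processing notes, while the aligner, quantifier, annotation and use of strand were not given in the sources used here. All 35 members described matched a RefSeq gene (GRCm38.p6). Depth was implied from the lowest values above 0 and transcript length (median 11.2 M fragments), and holds only if the unit is FPKM.

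Genes at 1 or more in at least 3 libraries (11360) were tested on log2(FPKM + 1) as deposited with limma 3.58.1 in R 4.3.3, fitting a mean per group to the 12 libraries together (eBayes, trend and robust). Two-sided p-values carry a Benjamini-Hochberg adjustment across the tested genes, and the threshold was 0.05. Log2 fold changes are on the log2(FPKM + 1) scale, which understates those of low genes, while folds such as 2.11-fold are ratios of mean levels. With 3 libraries in each group, the smallest p of an exact permutation test is 0.10. The comparison of 8276OV with 8276KD was added after the data were seen. GC correction removed, in each library, a natural spline (5 degrees of freedom) of the deviation from the gene's mean on GC content, taken from the longest transcript in GENCODE M21 (11197 genes). The limma fit was tested on simulated data. Promoters are those of RefSeq (GRCm38.p6), found for 9 of the 10 tested members. The count of columns that belong to no sample was 0.

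The members and the gene lists were chosen with earlier results of these data known. A further Serpin gene and a complement gene are not reported here, and counts and sums leave them out. All other tested Serpin genes were named, with the value of every library. Of each pathway list, up to 4 tested genes with the smallest p over the 3 comparisons were named, and any other is said to be picked after its values were seen. Alternatives were a pseudocount of 0.1, no filter, quantile normalization, median-of-ratios factors, GC correction, a fit of the compared groups alone, the replicate number as a term, the other control or both, and leaving out each library.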

Additional observations from a re-analysis of the deposited data

Results flagged for a closer look

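Serpinh1, the collagen chaperone, was lower under overexpression and higher under knockdown, each against its listed control, and the difference between the effects was -0.92 on the log2 scale (limma adjusted p = 7.90e-06), and -0.48 after GC correction. Serping1, the C1 inhibitor, did the same, with a difference of -0.74 (adjusted p = 1.90e-04), and -0.51 after GC correction. For both genes the control groups differed too, with 5NC above 3NC by 0.55 and 0.34. Set directly against 8276KD, 8276OV was at -0.36 for Serpinh1 and -0.39 for Serping1. After GC correction 8276OV against 8276KD was at 0.0047 for Serpinh1 (adjusted p = 0.910) and -0.22 for Serping1 (adjusted p = 0.0207). The knockdown rises of both were lost without single libraries, as given above, and stood at 0.28 and 0.25 after GC correction.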

How the results depend on the processing

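The counts of Serpin genes called stayed within 1.5 times their main value under the alternatives, with these exceptions. In 8276KD against 3NC, where 3 were higher and 1 lower, no filter on low values gave 1 higher and 2 lower, quantile normalization and GC correction each gave 2 lower, and both controls together 3 lower. With 5NC as the control, 1 was higher and 6 were lower in 8276KD, with and without GC correction. With GC correction, 3 genes in place of 6 were higher in 8276OV than in 5NC. With 3NC as the control, 1 in place of 3 was lower in 8276OV, with and without GC correction. When single libraries were left out, the count higher in 8276KD ranged from 1 to 3 and higher in the test of the difference from 4 to 5, while the others kept their main value.

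With 5NC as the control of 8276KD, the direction turned for Serpinb1b (-0.29), Serpinb6a (0.27), Serpinb6b (-0.74), Serpinb8 (-0.50), Serpinb9 (-0.75), Serping1 (-0.11) and Serpinh1 (-0.35). With GC correction added, which was chosen after seeing the data, these were -0.34, 0.19, -0.77, -0.56, -0.81, -0.039 and -0.21. Against both controls together it turned for Serpinb1b (-0.040), Serpinb6a (0.097), Serpinb6b (-0.33), Serpinb8 (-0.24), Serpinb9 (-0.35) and Serpinh1 (-0.069). In 8276OV against 3NC with GC correction it turned for Serpinb6a (-0.091), Serping1 (0.032) and Serpinh1 (0.28). GC correction alone turned Serpinb8 (-0.23) under overexpression, Serpinb8 (-0.044) and Serpinb9 (-6e-04) under knockdown, and the differences between the effects of Serpinb1b (-0.019), Serpinb8 (-0.18) and Serpini1 (-0.15). Quantile normalization turned Serpinb8 under knockdown (-0.0062). Leaving out single libraries turned values near 0: Serpinb8 under knockdown (-0.060 to 0.12) and in the difference between the effects (-0.035 to 0.17), Serpinb9 under knockdown (-0.0055 to 0.15) and Serpini1 between the controls (-0.0016 to 0.090). The cause was not tested.

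With the replicate number as a block, the Serping1 rise under knockdown (0.23) had an adjusted p of 0.0568 and that of Serpini1 (0.27) 0.0358. No other call of a Serpin gene changed, and no count did. Same-numbered libraries deviated together by r of -0.18 to 0.09, so they were taken to share only a number. Every library correlated best with its own number in 5NC against 3NC, and none did in the comparisons of a manipulated group with its control. Serpinb1b and Serpinb8 lay near a level of 1, about 18.9 and 51.1 fragments, which limits their precision.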
